A study of Mus musculus with 6 samples.

Results

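The genes described here are predicted small nucleolar RNA (snoRNA) genes that carry no family name: the 223 loci typed snoRNA in the authors' table whose names do not begin with Snord, Snora, Scarna or Rnu3. They make up 223 of 321 snoRNA loci and 223 of 28660 loci in all, after the synthetic spike-in RNAs are set aside. Of the 223, 217 have a Gm-numbered name, and the other 6 are Rnu73b, AF357399, Mir1949, Mir1839, Mir677 and Mir3096. The RNA came from nuclei of HL-1, an immortalised mouse atrial cardiomyocyte line, grown in Claycomb medium with serum, L-glutamine and norepinephrine. No genotype or drug treatment separates the groups, which are 2 fractions of the same kind of nuclei: the chromatin pellet extract and the soluble extract of the nucleus. Each fraction had 3 libraries, 6 in all, and the deposited table gives each fraction a single FPKM (fragments scaled by transcript length and sequencing depth), so the replicates cannot be seen apart. There is therefore no replicate error and no test of any difference given here.

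Small nucleolar RNAs guide chemical modification of ribosomal and spliceosomal RNA. Box C/D RNAs guide ribose methylation by fibrillarin, and box H/ACA RNAs guide pseudouridylation by dyskerin; a related group, the small Cajal body RNAs (Scarna), guides modification of spliceosomal RNA. In vertebrates most of them are cut from introns of longer host genes, after splicing, by trimming of the released intron down to the part covered by the core proteins.

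The reference tables hold sequence for a few of the genes that are also annotated as microRNA precursors, and these are shown because their letters can be set beside the boxes that define the snoRNA families. Each hairpin below is in RNA letters, 5′ to 3′, from RefSeq on GRCm38.p6. Mir677 lies at chr10:128085286-128085363 on the plus strand, within the span of Atp5b. Its capitals mark the C box letters UGAUGA and, after them, the D box letters CUGA.
Mir677: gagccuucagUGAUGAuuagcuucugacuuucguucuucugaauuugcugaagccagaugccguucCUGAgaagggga
Mir1839 lies at chr7:81529916-81529988 and Gm25500, whose RefSeq product is miR-7650, at chr9:15312611-15312669, both on the plus strand. Their capitals mark the letters ACA within 23 bases of the end. The letters are those of the tail box of H/ACA RNAs, but that box lies closer to the end of the mature RNA than here. The Gm25500 hairpin covers 59 of the 123 bases of its locus in the authors' table.
Mir1839: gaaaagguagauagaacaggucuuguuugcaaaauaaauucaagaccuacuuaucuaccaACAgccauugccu
Gm25500: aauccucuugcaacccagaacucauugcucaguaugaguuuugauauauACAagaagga
UGAUGA followed by CUGA, searched on the transcribed strand, was found in 5 of 1005 mouse hairpins (0.498%), and ACA near the end in 270 of 1005 (26.9%), so the ACA match is common among hairpins of any kind. The mature microRNAs annotated in these hairpins are shown with the seed, bases 2 to 8, in capitals.
miR-677-5p: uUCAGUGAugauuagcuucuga
miR-677-3p: gAAGCCAGaugccguuccugagaagg
miR-1839-5p: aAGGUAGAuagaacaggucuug
miR-7650-5p: aAUCCUCUugcaacccagaacu
miR-7650-3p: gUUUUGAUauauacaagaagga
No other mature mouse miRNA in the table shared any of these seeds, so the genes form no seed family. Mir677 had 239 FPKM in the pellet and 34.9 FPKM in the soluble extract. Gm25500 had 162 FPKM in the pellet and 24.3 FPKM in the soluble extract, and Mir1839 had 8.40 and 12.2 FPKM in the pellet and the soluble extract. A hairpin value of this library type counts fragments of the precursor region and not the mature microRNA. The sequences of the remaining members were not analysed here, so they are not assigned to the C/D or H/ACA class.

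Differences between fractions are given as the log2 of pellet over soluble level on the spike-in scale, on which the pellet FPKM is multiplied by 3.37, the authors' factor from 82 ERCC spike-in RNAs added to each fraction before extraction. On the FPKM scale, which has no such factor, every log2 value is lower by 1.75. The filter asked that the average of the pellet and soluble FPKM reach 0.5, and a difference of 2-fold or more, in either direction, is counted as higher or lower. Of the 223 genes, 214 passed that filter: 197 had both values at 0.5 FPKM or above, 11 passed through the pellet value only and 6 through the soluble value only. The 9 genes that did not pass ranged from 0.164 to 0.564 FPKM in the pellet and 0.0776 to 0.522 FPKM in the soluble extract.

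Nearly all of the predicted snoRNAs were more abundant in the chromatin pellet. On the spike-in scale 197 of 214 (92.1%) passed 2-fold in favour of the pellet, 3 (1.40%) passed it in favour of the soluble extract and 14 did neither. Over all 13917 loci that passed the filter, 31.9% were higher and 10.5% were lower. The median log2 difference of the 214 was 3.33, with quartiles of 2.24 and 4.25 and a range from -1.48 to 8.42, and the median over all tested loci was 0.41. On the FPKM scale, 137 of the 214 were higher, against a background of 9.66%, and 16 were lower, against a background of 61.2%; their median was 1.58 and that of all tested loci -1.34. Among the 197 genes with both values at 0.5 FPKM or above, a set chosen after seeing the data, 185 were higher and 2 lower, median 3.31, beside backgrounds of 30.4% and 9.81%. With all 223 genes, 205 were higher and 3 lower, median 3.30, beside 49.8% and 8.88% of all 28660 loci. Spike-ins averaging 0.5 FPKM or more scattered around their expected ratio with an SD of 0.12 log2 units (n = 47) and 0 of them were off by 2-fold; this measures the assay's technical scatter, not the spread between cultures. In pooled bulk extracts, more RNA of a gene per nucleus and more nuclei carrying it cannot be told apart.

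**Figure D1:**
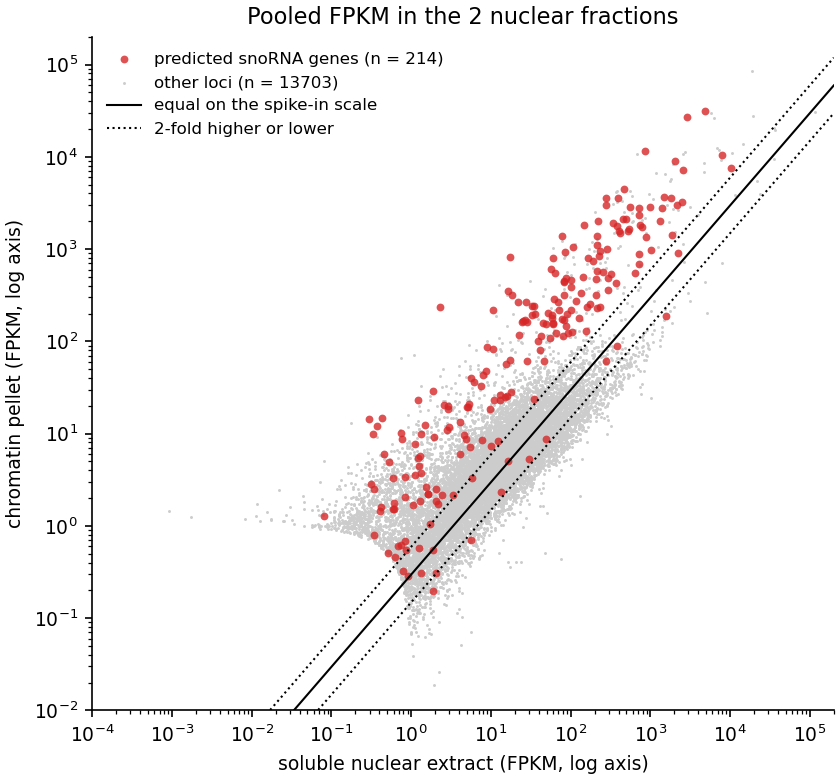
Soluble FPKM (horizontal, log scale) against chromatin pellet FPKM (vertical, log scale), with 1 point per tested locus; predicted snoRNAs without a family name are drawn over all other loci. The predicted snoRNAs form a band above the line of equality on the spike-in scale, with a median log2 difference of 3.33, and 3 of them lie at least 2-fold below that line.

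The predicted snoRNAs spanned 5 orders of magnitude in the pellet, with 0.164 to 31656 FPKM there and 0.0776 to 10189.9 FPKM in the soluble extract. Their median over tested genes was 128 FPKM in the pellet and 34.1 FPKM in the soluble extract. Together they made up 24.9% of all summed FPKM in the pellet and 7.45% in the soluble extract. A few genes held much of that sum in each fraction, with each fraction ranked by its own values. The top 2 differed between the fractions, but the top 10 overlapped. Gm26447, Gm25835, Gm23455 and Gm23262, for example, were in the top 10 of both. The top 2 in the pellet carried 28.5% of the members' pellet sum. The top 2 in the soluble extract carried 25.5% of their soluble sum. For the top 10 of each fraction these shares were 56.2% and 55.4%, as pellet and soluble. In the pellet 40 genes reached 1000 FPKM, and in the soluble extract 16 did. Because FPKM divides by transcript length, and these transcripts are about as short as a library fragment, a level may be set less well against long genes than against genes of like length. The pellet to soluble ratio compares 1 gene with itself. Whether the same length was used for it in both fractions is unknown, since the settings were not given.

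At each level of abundance above the filter the members' median exceeded that of other loci, and below the filter it did not. Among genes with a mean of 0.5 to 5 FPKM, 38 of 47 were higher and 2 lower, with a median log2 difference of 2.27, while 44.1% of other loci at that level were higher and 6.41% lower and their median was 0.80. Between 5 and 50 FPKM, 44 of 48 were higher and 0 lower, at a median of 3.69, beside 23.6% higher and 9.54% lower among other loci and a median of 0.24. Between 50 and 500 FPKM, 68 of 70 were higher and 0 lower, at a median of 3.39, beside 12% higher and 38.7% lower among other loci and a median of -0.68. At 500 FPKM or above, 47 of 49 were higher and 1 lower, at a median of 3.62, beside 58.6% higher and 25.3% lower among the 99 other loci, which include named snoRNAs, and a median of 2.04. Of the 9 members under the filter 8 were higher and 0 lower, at a median of 1.43, beside 66.6% higher and 7.32% lower among other loci at that level and a median of 1.86. The depth of the libraries is unknown.

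The most abundant of all was Gm26447 (ENSMUSG00000064382.1), listed at a chromosome 16 locus shared with Eif4a2, the gene of a translation initiation helicase, and with Rfc4, a clamp loader subunit. Gm26447 had 31656 FPKM in the pellet and 4909.83 FPKM in the soluble extract, a log2 difference of 4.44. Gm24616, listed at the same locus, had 7198 FPKM in the pellet and 2573 FPKM in the soluble extract, a difference of 3.24. Next came Gm25835 (ENSMUSG00000089542.1), 144 bases long at chr11:69668852-69668995 inside Eif4a1, a paralogue of Eif4a2. Gm25835 had 27319 FPKM in the pellet and 2903 FPKM in the soluble extract, a difference of 4.99, while Eif4a1 itself had a difference of -0.62. The exact position of Gm26447 within its locus is not known from the tables used, so it was assigned to neither gene there. Eif4a1 also held Gm22988, with 1912.0 FPKM in the pellet and 339 FPKM in the soluble extract, and Gm24029, with 1367 FPKM in the pellet and 883 FPKM in the soluble extract.

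Of the other members among the 10 highest pellet levels, Gm25791 and Gm23455 are described with Taf1d, the gene that holds them. Gm26397, in Tomm20, a receptor of mitochondrial protein import, had 8928 FPKM in the pellet and 2062.5 FPKM in the soluble extract, a log2 difference of 3.87. Gm22357, at a locus shared by Gas5, a noncoding host gene of box C/D RNAs, and other genes, had 4468 FPKM in the pellet and 465 FPKM in the soluble extract, a difference of 5.02. Rnu73b, in the ribosomal protein gene Rps3a1, had 3602 FPKM in the pellet and 397 FPKM in the soluble extract, a difference of 4.94. Gm22270, in the ribosomal protein gene Rpl5, stood lower at 3651 FPKM in the pellet and 1480.45 FPKM in the soluble extract, a difference of 3.06. Gm23262 was the exception among the 10 highest. It lies in Eif4g2, the gene of a translation factor, and had 7599.95 FPKM in the pellet and 10189.9 FPKM in the soluble extract, the highest soluble value of any member. Its difference was 1.33 on the spike-in scale and -0.42 on the FPKM scale, so its direction rests on the factor.

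The 12 largest differences between fractions were in genes with pellet levels between 1.27 and 1393 FPKM, below the most abundant members. Gm25970 (ENSMUSG00000087790.1), 86 bases at chr12:65056573-65056658 inside Prpf39, a splicing factor gene, had 235 FPKM in the pellet and 2.31 FPKM in the soluble extract, a log2 difference of 8.42. Gm24489 (ENSMUSG00000065735.1), whose current symbol is Snord80, a box C/D RNA, had 826 FPKM in the pellet and 17.2 FPKM in the soluble extract, a difference of 7.34. Its locus in the table is shared with Gas5, Zbtb37, Serpinc1 and others. In both of these genes the soluble value was above 2 FPKM. Gm23008, in the ribosome assembly gene Ppan, had 348 FPKM in the pellet and 16.2 FPKM in the soluble extract, a difference of 6.18. Gm22362, in Ybx3, a cold shock domain protein gene, had 217 FPKM in the pellet and 10.6 FPKM in the soluble extract, a difference of 6.11. Gm23201, in Zfas1, a noncoding snoRNA host gene, had 1393 FPKM in the pellet and 78.5 FPKM in the soluble extract, a difference of 5.90. In all, 66 of the 214 tested members reached 16-fold higher, beside 4.72% of all tested loci. Of the 197 with both values at 0.5 FPKM or above 58 did, beside 2.2% of all such loci. Gm26003, at the locus of the noncoding gene 9430008C03Rik, had 314 FPKM in the pellet and 18.3 FPKM in the soluble extract, a difference of 5.85. Gm25105 had 23.2 FPKM in the pellet and 1.21 FPKM in the soluble extract, a difference of 6.02.

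The other 5 of the 12 largest differences rested on a soluble value below 0.5 FPKM. Gm26236 had 14.5 FPKM in the pellet and 0.297 FPKM in the soluble extract, Gm26100 had 14.7 and 0.427 FPKM, and Gm26186 had 11.9 and 0.367 FPKM, each pair given as pellet and soluble. Gm26215 had 9.82 FPKM in the pellet and 0.333 FPKM in the soluble extract, and Gm22865 had 1.27 and 0.0810 FPKM in the pellet and the soluble extract. Their log2 differences ranged between 5.73 and 7.37, and with 1 FPKM added to both values they ranged between 2.29 and 5.27. Spike-ins averaging 0.05 to 0.5 FPKM, the range of these soluble values, scattered more, with an SD of 0.37 (n = 16). That SD need not hold for members at this level. Among members with coordinates of their own, the 2 lowest soluble values at 131 bases were 0.377 and 0.753 FPKM, a ratio of 2. At 134 bases the 2 lowest were both 0.344 FPKM. The number of fragments behind such values is unknown.

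Only 3 tested genes were at least 2-fold lower in the pellet, and 2 of them had a pellet value below 1 FPKM. Gm26083 (ENSMUSG00000088529.1), at the locus of the noncoding gene 2810008D09Rik, was the abundant one, with 187 FPKM in the pellet and 1549.99 FPKM in the soluble extract, a log2 difference of -1.29. Gm24992, in the histone methyltransferase gene Nsd3, had 0.199 FPKM in the pellet and 1.88 FPKM in the soluble extract, a difference of -1.48. Gm24958, in the clathrin adaptor gene Ap1b1, had 0.697 FPKM in the pellet and 5.56 FPKM in the soluble extract, a difference of -1.24. Of the genes within 2-fold, the lowest were Gm25857 with 0.311 FPKM in the pellet and 2.02 FPKM in the soluble extract, Gm22488 with 5.31 and 30.5 FPKM, and Gm22676 with 2.34 and 13.3 FPKM, again as pellet and soluble. Gm24507 had 8.73 FPKM in the pellet and 49.5 FPKM in the soluble extract, and Gm25663 had 61.9 and 281 FPKM in the pellet and the soluble extract. The log2 differences of these 5 lay between -0.95 and -0.43, so on the FPKM scale all 8 lowest genes passed 2-fold lower.

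RefSeq types the members more finely than the table does, and the medians of these types were unequal, a difference that was not tested. Of the tested genes, 111 were typed snoRNA, 16 guide RNA, 10 pseudogene and 4 microRNA, and 73 had no matched type. Among those typed snoRNA, 100 were higher and 1 lower, with a median log2 difference of 3.43 and median levels of 147 FPKM in the pellet and 33.0 FPKM in the soluble extract. The guide RNA genes, a type that RefSeq also gives to all 9 of its Scarna genes and to 0 of its 39 Snora genes, were 14 higher and 0 lower, at a median of 2.22. Their median levels were 178 FPKM in the pellet and 201 FPKM in the soluble extract, the one type in which the soluble FPKM was the higher. Without the spike-in factor the median of the guide RNA genes was 0.47. The 9 named Scarna genes did not share the low median of these members. On the spike-in scale their median was 3.15, with median levels of 481 FPKM in the pellet and 171 FPKM in the soluble extract. Of the 10 pseudogenes 9 were higher and 0 lower, median 2.35, and the 4 microRNA genes were all higher with a median of 3.61.

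The guide RNA genes themselves varied widely. Gm26347, in Rnf41, had 5.99 FPKM in the pellet and 0.454 FPKM in the soluble extract, the highest log2 difference of the 16 at 5.48. It passed the filter through its pellet value only, so this difference rests on a soluble value below 0.5 FPKM. Gm25395, in the autophagy gene Atg16l1, had 1013 FPKM in the pellet and 284 FPKM in the soluble extract, a difference of 3.59. Gm22009, in the importin gene Kpna4, had 983 FPKM in the pellet and 1017 FPKM in the soluble extract. Its difference of 1.71 lay just under the lower quartile of the 16, 1.72. At the other end were the 2 guide RNA genes that stayed within 2-fold. Gm22767, in Ppp1r8, the gene of a nuclear phosphatase inhibitor, had 899 FPKM in the pellet and 2203 FPKM in the soluble extract, a difference of 0.46. Gm23751, in the chromatin remodeller gene Chd4, had 88.6 FPKM in the pellet and 377 FPKM in the soluble extract, a difference of -0.34. These guide RNA examples were chosen after their values were seen.

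**Figure D2:**
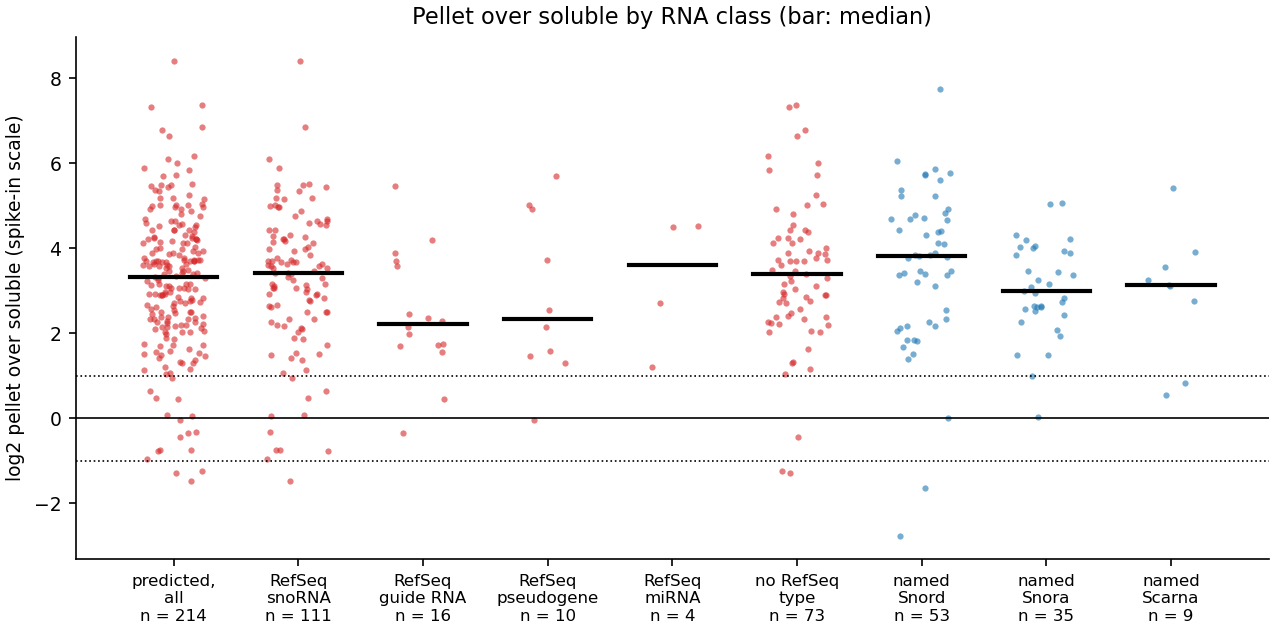
Log2 of pellet over soluble level on the spike-in scale (vertical) for tested predicted snoRNAs, all and by RefSeq type, and for named Snord, Snora and Scarna genes, 1 point per gene with the median as a bar. The guide RNA members sit lowest, with a median of 2.22, against 3.43 for the members typed snoRNA.

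Named snoRNAs of the table gave similar medians. Of 53 named Snord genes, which are box C/D RNAs, 50 were higher and 2 lower, with a median log2 difference of 3.81. Of 44 named Snora and Scarna genes, which are H/ACA and Cajal body RNAs, 40 were higher and 0 lower, their median being 3.10. The predicted genes had a median pellet level of 128 FPKM, beside 627 FPKM for the named C/D group and 753 FPKM for the named H/ACA and Cajal body group. Snord13 had 29596 FPKM in the pellet and 5743 FPKM in the soluble extract, and Scarna9 had 84861 FPKM in the pellet and 19110 FPKM in the soluble extract. Family symbols have since been given to 4 of the predicted genes: Gm24489 is Snord80, Gm22457 is Snora9, Gm25206 is Snord59a and Gm25822 is Snora57.

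Length separated the predicted genes into a short and a long group, which resemble in size the named families. The 149 members with a known position had a median length of 131 bases, with quartiles of 122 and 136 and a range of 52 to 343. RefSeq's Snord genes had a median length of 76.5 bases, its Snora genes 121 and its Scarna genes 118. All 23 members of 60 to 100 bases were higher in the pellet, with a median log2 difference of 3.98. Of all tested members 92.1% were higher, at a median of 3.33. Of 103 tested members of 120 to 150 bases, 92 were higher and 1 lower, at a median of 3.11, and of 11 longer members 9 were higher and 0 lower, at a median of 3.59. The difference between the short and the long group was not tested, and length alone does not assign a family.

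**Figure D3:**
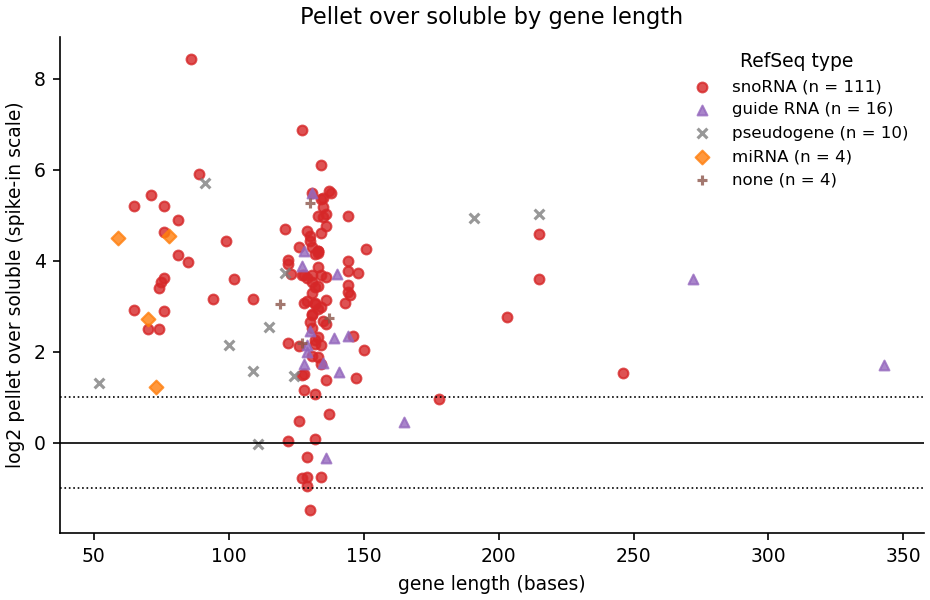
Gene length in bases (horizontal) against log2 of pellet over soluble level on the spike-in scale (vertical) for tested predicted snoRNAs with a known position, 1 point per gene. The 23 genes of 60 to 100 bases all lie above the 2-fold line, and the dense group at 120 to 150 bases has a median of 3.11.

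Most members with a known position lie inside a longer gene. Of the 149 so placed, 119 were inside the RefSeq span of a longer gene and 30 were outside any. Both groups were higher in the pellet: inside, 106 of 116 tested passed 2-fold upward and 1 downward (median log2 difference 3.27), and outside, 25 of 29 passed upward and 0 downward (median 3.05). They differed in level, with a median pellet level of 167 FPKM inside longer genes and 8.44 FPKM outside them. Of the 30 outside, 28 had table coordinates of their own, against 12 of the 119 inside. The median pellet level of tested members was 11.7 FPKM with coordinates of their own and 168 FPKM with shared ones. Position and shared coordinates therefore cannot be told apart as the source of the difference in level. A further 46 members were assigned to the only longer gene with the same table coordinates, giving 165 members in 143 holding genes. The strand of the members is not in the tables used, so an antisense position cannot be told from an intron of the gene.

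Most predicted snoRNAs stood further toward the pellet than the genes that hold them. In 151 pairs over 129 holding genes with both tested, the member was above its holding gene in 138, at least 2-fold above in 125 and at least 2-fold below in 7. The members' median log2 difference was 3.35 and that of the holding genes 0.37, close to the median of all loci. The median difference between member and holding gene was 2.84, with quartiles of 1.74 and 4.03, and it is the same on both scales because the factor cancels. Without loci that share coordinates only 9 pairs remained, with the member at least 2-fold above in 7 and a median difference of 1.86. Of these 9 pairs, 7 are the members held by Taf1d and share a single holding-gene value, so the pairs are not independent. The others are in Zfp934 and Abraxas1. Across the 151 pairs the log2 differences of member and holding gene were unrelated, with Pearson's r of -0.01 and Spearman's rho of -0.02; this describes pairs in the same pooled libraries, and genes are not replicates. In the pellet the median member level was 10.7 times that of its holding gene, and in the soluble extract 1.59 times.

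The table's loci of member and holding gene overlapped in 142 of the 151 pairs, so fragments of the holding gene's unspliced RNA could be counted for the member, and their share was not tested. Where the member's pellet FPKM was at least 10 times that of its holding gene, 74 of 76 were higher with a median of 3.56. At 1 to 10 times, 46 of 49 were higher with a median of 3.16, and below the holding gene's level 20 of 26 were higher with a median of 2.58. The member's pellet value enters both this grouping and the log2 difference, so the rise across the groups is partly built in. It cannot show what share of fragments came from the holding gene. With pairs kept only where the member exceeded its holding gene in both fractions, an alternative added after seeing the data, 69 of 84 pairs were at least 2-fold above and the median difference was 2.59.

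**Figure D4:**
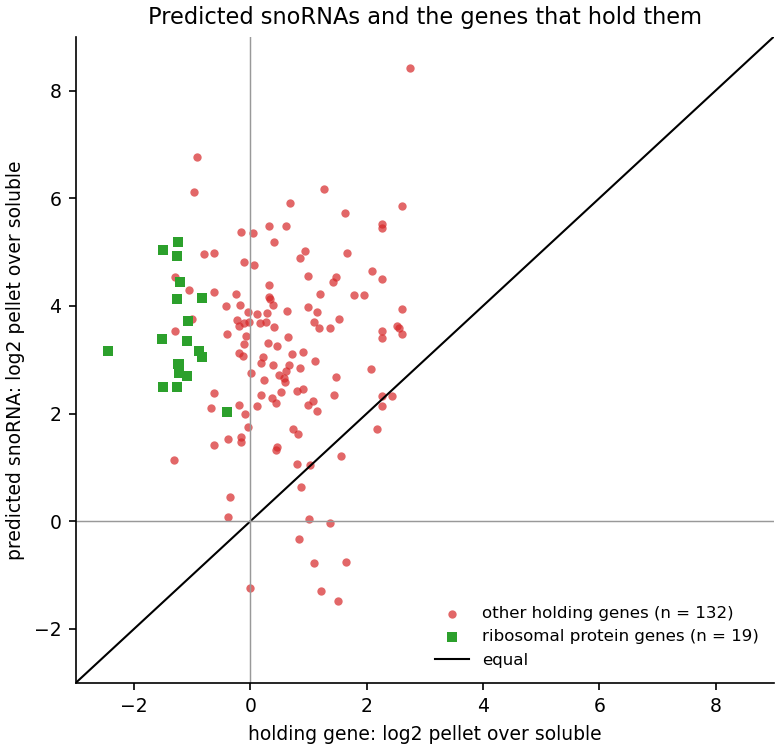
Log2 of pellet over soluble level on the spike-in scale for the gene that holds a predicted snoRNA (horizontal) and for the snoRNA (vertical), 1 point per pair. Of the 151 pairs, 138 lie above the line of equality, among them all 19 members in ribosomal protein genes, whose holding genes lie to the left.

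The contrast was plainest in ribosomal protein genes, most of which were themselves lower in the pellet. All 19 members inside such genes were higher by 2-fold or more, with a median log2 difference of 3.16 and a range from 2.03 to 5.19. Of all tested members 92.1% were higher, at a median of 3.33, so these 19 were much like the rest. The 13 ribosomal protein genes that hold them had a median of -1.23, with a range from -2.45 to -0.40, and 10 of the 13 were at least 2-fold lower. AF357399, in Rps16, had 114 FPKM in the pellet and 42.9 FPKM in the soluble extract, a difference of 3.16, beside -2.45 for Rps16. Gm26448, in Rpsa, had 2803 FPKM in the pellet and 1401 FPKM in the soluble extract, a difference of 2.75, beside -1.23 for Rpsa.

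The same held over all holding genes that were lower in the pellet, most of them the ribosomal protein genes above. In all, 15 holding genes at least 2-fold lower in the pellet, 10 of them ribosomal protein genes, held 21 members. All 21 were at least 2-fold higher, with a median of 3.39, beside 92.1% of all tested members. Mir677, whose hairpin with C and D box letters is printed above, had a log2 difference of 4.53. Gm25206, now Snord59a, had 157 FPKM in the pellet and 45.5 FPKM in the soluble extract, a difference of 3.54. Both lie in Atp5b, the gene of the catalytic ATP synthase subunit, which had 212 FPKM in the pellet and 1744 FPKM in the soluble extract, a difference of -1.29.

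Members inside 1 holding gene often differed from each other. There were 15 genes with at least 2 members, 37 members together, and the median range of log2 differences within such a gene was 1.58. The widest range, 3.37, was in Taf1d, the gene of a subunit of the RNA polymerase I promoter factor, which held 7 members. RefSeq places Taf1d at chr9:15305953-15316997, and it had 46.1 FPKM in the pellet and 32.4 FPKM in the soluble extract, a difference of 2.26. The table's own Taf1d locus ends before the first member, so these 7 lie in the RefSeq span and not in the locus whose level is given.

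In order along the gene, Gm25500 comes first, with its RefSeq hairpin 6658 bases from the start of the span. Its log2 difference of 4.49 is that of its whole 123-base locus and not of the hairpin alone. Gm24455, at 7849 bases, had 495 FPKM in the pellet and 144 FPKM in the soluble extract, a difference of 3.54. Gm24299, at 8121 bases, had 3553 FPKM in the pellet and 275 FPKM in the soluble extract, a difference of 5.45. Gm25791, at 8892 bases, was the most abundant and the most enriched, with 11565 FPKM in the pellet and 849 FPKM in the soluble extract, a difference of 5.52. A neighbour close by was far less enriched. Gm22620, at 9236 bases, had 1997 FPKM in the pellet and 1337 FPKM in the soluble extract, a difference of 2.33. Gm24357, at 9569 bases, had 180 FPKM in the pellet and 57.6 FPKM in the soluble extract, a difference of 3.40. Gm23455, at 10536 bases, which RefSeq types as a pseudogene, had 10353 FPKM in the pellet and 7865 FPKM in the soluble extract, a difference of 2.15. Gm25791 and Gm23455, which had nearly the same pellet level, thus stood at opposite ends of the cluster's range of differences.

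**Figure D5:**
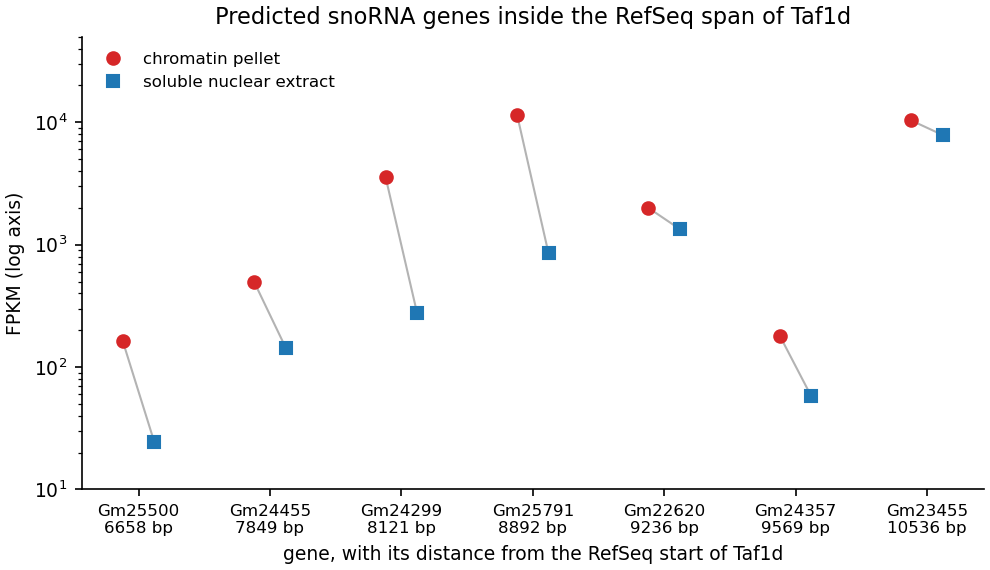
Pellet and soluble FPKM (vertical, log scale) of the 7 predicted snoRNAs inside the RefSeq span of Taf1d, by distance in bases from the start of the span (horizontal). The gap between the fractions is widest for Gm25791, with 11565 FPKM in the pellet and 849 FPKM in the soluble extract, and narrowest for Gm23455, with 10353 and 7865 FPKM in the pellet and the soluble extract.

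The 4 members with a Mir name had log2 differences between 1.22 and 4.53. Mir1949, listed within the span of the noncoding snoRNA host gene Snhg4, was the most abundant, with 3547 FPKM in the pellet and 1813 FPKM in the soluble extract, a log2 difference of 2.72. Mir3096 had 32.7 FPKM in the pellet and 7.46 FPKM in the soluble extract, a difference of 3.89. Mir1839, the hairpin with ACA near its end printed above, had the lowest difference of the 4, at 1.22, close to the 1.56 of the gene 2900076A07Rik that holds it.

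The messages of the proteins that build and trim snoRNA particles did not share this distribution. Of 45 tested genes on a list of such factors, 4 were higher in the pellet, 2 lower and 39 within 2-fold, with a median log2 difference of -0.17. Among all tested loci, 31.9% passed 2-fold toward the pellet and 10.5% toward the soluble extract, and the median was 0.41. On the FPKM scale 1 was higher and 38 lower. Without the factor, those shares of all tested loci became 9.66% toward the pellet and 61.2% toward the soluble extract. The difference between the list and all tested loci was not tested. None of the 4 core genes of the box C/D particle passed 2-fold, with Fbl, the methyltransferase fibrillarin, at 5.13 FPKM in the pellet and 25.05 FPKM in the soluble extract. Of the 4 core genes of the H/ACA particle only Nop10 passed, with 2.77 FPKM in the pellet and 28.7 FPKM in the soluble extract, a difference of -1.62. The pseudouridine synthase gene Dkc1 had 28.6 FPKM in the pellet and 117 FPKM in the soluble extract, a difference of -0.28. The factors higher in the pellet were Zcchc7, a zinc finger protein of the nuclear exosome's TRAMP complex, with 15.9 FPKM in the pellet and 5.68 FPKM in the soluble extract, a difference of 3.24, and the cap hypermethylase Tgs1, with 8.03 and 8.90 FPKM in the pellet and the soluble extract, a difference of 1.61. The others were Zcchc8, a nuclear exosome adaptor, with a difference of 1.52, and the poly(A) polymerase Papd5, with 1.19. The processome gene Imp3 had 9.90 FPKM in the pellet and 77.8 FPKM in the soluble extract, a difference of -1.22, and the nucleolar chaperone Npm1 had 73.1 and 488 FPKM, a difference of -0.98.

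Of the 223 genes, 183 share their table coordinates with another identifier, and the 39 tested genes with coordinates of their own included 35 higher and 0 lower ones, median 3.54. The summed FPKM over all loci was 832792 in the pellet and 949582 in the soluble extract, and 0 loci were listed at 0. Of 10 cardiomyocyte markers, 9 were measured and passed the filter, with Tnnt2 at 213 FPKM in the pellet and 1022 FPKM in the soluble extract and the atrial peptide gene Nppa lowest at 0.208 and 1.63 FPKM in the pellet and the soluble extract; Ryr2 was not analysed here. Summed fibroblast markers came to 1.45 FPKM in the pellet and 6.47 FPKM in the soluble extract, endothelial markers to 2.38 and 6.96 FPKM, and immune markers to 0.587 and 0.813 FPKM, as pellet and soluble. Smooth muscle markers summed to 67.0 FPKM in the pellet and 383 FPKM in the soluble extract, nearly all from Tagln.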

How the data were processed

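RNA was measured in 6 libraries, 3 from the chromatin pellet extract and 3 from the soluble nuclear extract of HL-1 nuclei. Per the labels' protocols, ERCC spike-ins were added to each fraction, ribosomal RNA was depleted with Ribo-Zero Gold and libraries were made with a strand-specific NEBNext kit. The submitters' processing notes list Cuffdiff, Cufflinks, HISAT2, bedtools and SAMtools with mm10; versions and settings were not given in the sources used here. In their table the authors gave 1 FPKM value per fraction, per the file headers, so libraries are pooled and cannot be compared; the depth is unknown. The deposited table also holds a rescaled pellet signal, its ratio to the soluble value and log10 forms of the total signal and of that ratio; from these only the factor of 3.37 was taken, which matches a zero-intercept regression of the 82 spike-ins. The rescaled column departed from pellet FPKM times that factor by at most 0.389 percent.

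Of 30687 lines, 1945 repeated identifiers were dropped, leaving 28742 identifiers and 28660 loci without spike-ins, and in 1889 lines the name stood in the type column. The log2 of pellet over soluble level was computed without a pseudocount wherever both FPKM values averaged 0.5 or more, and called at 2-fold (Python 3.11.15, pandas 2.3.3, numpy 2.4.6, matplotlib 3.10.9). The calculation was tested on simulated data. Replicates being pooled, limma could not be run and counts and medians stand without a test. Positions, types and holding genes came from RefSeq GRCm38.p6, the same assembly as mm10: 135 members were matched by symbol, 149 have a position and 74 have none. Without a genome, boxes and near-identical copies of members were not analysed here, so reads shared between copies remain uncertain. Genes named are the 12 highest and 8 lowest log2 differences, all at least 2-fold lower, the 10 highest pellet levels, the 3 highest and 3 lowest of the snoRNA particle list, their holding genes and the most abundant named snoRNAs; others were chosen after their values were seen. The members and lists were chosen with earlier results of these data known. The values of 1 holding gene and its members are not reported here.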

Additional observations from a re-analysis of the deposited data

How the results depend on the processing

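No paired analysis was possible because the deposited values pool the 3 libraries of a fraction, and leaving out a library was not run for the same reason. On the FPKM scale, without the spike-in factor, 16 members were lower, and the medians were 1.58 for members, 2.06 for Snord and 1.34 for Snora and Scarna genes; of the particle genes 1 was higher and 38 lower, with a median of -1.92, and Gm23262 reversed to -0.42. With the filter raised to 1 FPKM the median difference between member and holding gene was 3.005. With the filter at 5 FPKM it was 3.23, the members' median was 3.54 and 1 was lower. With 1 FPKM added to both values after the spike-in factor was applied, it was 2.54, the members' median was 3.06 and 1 was lower. At 4-fold 0 members were lower. Without loci that share coordinates 35 members were higher and 0 lower, median 3.54, and 3 Snord and 2 Snora or Scarna genes were higher. The Snora and Scarna median was then 3.34 and that of the particle genes -0.035. Of the 9 pairs of member and holding gene left, 7 were in Taf1d and share a single holding-gene value. The member stood 2-fold above its holding gene in 7 of 9 pairs, with a median difference of 1.86. With members above the holding gene in both fractions that was 69 pairs and 2.59. With the factor taken as the median spike-in ratio, 3.50, every log2 difference rose by the same constant, which is smaller than the spike-in SD. The depth behind low values is unknown, and 6055 tested loci share coordinates.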
